A study of Mus musculus with 6 samples.

Results

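Rab5 proteins are small GTPases of the early endosome, the compartment that receives cargo taken up from the plasma membrane. In their GTP-bound form they recruit tethers and lipid kinases that let incoming vesicles fuse, and related Rab proteins mark the routes that lead away from this compartment, either back to the cell surface or onward to lysosomes. The 10 genes described here are Rab5a, Rab5b and Rab5c, the recycling Rab genes Rab4a and Rab11a, the late endosomal Rab7, the endosomal Rab21, Rab22a and Rab31, and Eea1, which encodes a tether that binds active Rab5. They were found by symbol among the 34745 genes of the expression table, and all 10 passed the filter on low counts. The set was chosen by a measured value of these same libraries, the adjusted p of Rab5c between the groups, so the differences between the groups in the 10 genes are descriptions without a test.

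RNA was sequenced from MLE-12 cells, an immortalized mouse lung epithelial line, in 3 samples that received a pCMV-SPORT6 plasmid carrying the NR4A1 reading frame behind a CMV promoter and in 3 samples that received this vector without it. All were transfected with a Lipofectamine reagent, and NR4A1 is an orphan nuclear receptor that acts as a transcription factor. The comparison asks which genes differ when this receptor is present in excess. The sources used here do not say whether the 3 samples of a group came from separate cultures, so p-values measure only the spread between these samples, which may be technical.

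Libraries held from 15019038 to 17574340 counts. Counts of Nr4a1, in which transcripts of the plasmid and of the cells' own gene cannot be told apart, were 50660, 60093 and 68555 with the plasmid and 428, 510 and 463 with the vector, which goes with the labels. The summed level of 10 epithelial markers was 930.6 to 971.7 CPM with NR4A1 and 1031 to 1109 CPM with vector (counts scaled to a common library total with TMM factors), with Cldn4 and Cldn7 under 1 CPM in all 6 libraries. The sum of 8 alveolar type 2 markers was 266.8 to 288.9 CPM against 289.6 to 301.1 CPM, with Lamp3, Sftpa1 and Sftpd under 1 CPM. Both sums were lower in all NR4A1 libraries, by a narrow margin in the second. NR4A1 overexpression replicate 2 stood apart from the other libraries: the summed level of 8 endothelial markers was 109.1 CPM there against 8.21 to 9.13 CPM elsewhere, and 7 of the 8 were highest in it. The summed level of 8 fibroblast markers was 1566 CPM there against 918.4 to 1043 CPM, and 6 of the 8 were highest in it. Immune markers showed no such gap, with 9.89 CPM in that library and 7.08 to 10.3 CPM elsewhere. Values without that library are given for some of the genes in which it moved the difference. In bulk RNA, fewer cells of a type and less RNA per cell cannot be told apart.

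Rab5a, Rab5b and Rab5c encode closely related proteins, so it matters whether their reads can be told apart. In the longest protein-coding transcripts of GENCODE M21 the coding sequence of Rab5c was 72.4% identical to that of Rab5a and 75.97% identical to that of Rab5b, and Rab5a and Rab5b were 73.95% identical. The aligned 30-base stretch within a single exon that the 3 genes share best is printed here, because it is where reads of all 3 are most alike. Capitals mark the 4 positions at which the 3 genes are not identical.
Rab5a: tatgcagatgacaacagcttATtAttTatg
Rab5b: tatgcagatgacaacagcttATtAttTatg
Rab5c: tatgcagatgacaacagcttGCtCttCatg
On GRCm38 these bases lie at chr17:53500388-53500417 on the plus strand for Rab5a, at chr10:128681438-128681467 on the minus strand for Rab5b and at chr11:100716810-100716839 on the minus strand for Rab5c, each within the coding part of exon 5. Even in this stretch Rab5a and Rab5b were the same while Rab5c stood apart from both. Over the whole coding alignment the longest identical run was 35 bases between Rab5a and Rab5b, 22 between Rab5a and Rab5c, and 23 between Rab5b and Rab5c. None of the 50-base stretches of Rab5c transcripts occurred in a transcript of another gene.

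Rab5c (ENSMUSG00000019173; chromosome 11 from 100715009 to 100738215, minus strand, GRCm38) had 2161, 2810 and 2704 counts with NR4A1 (replicates 1, 2 and 3, the order kept throughout) and 4102, 4439 and 4253 counts with vector. On the scale of TMM-normalized CPM this was 146.1, 167.4 and 156.2 against 237.4, 264.9 and 240.9. The highest NR4A1 library lay well below the lowest vector control, and the spread within each group was small beside the gap between them. The mean was 156.6 ± 10.7 CPM with NR4A1 and 247.7 ± 14.96 CPM with vector (SD, n = 3 each), so that the NR4A1 group held 63.2% of the vector level, a log2 fold change of -0.66 with a standard error of 0.0825. Rab5c was chosen because it was the gene with lower expression at an adjusted p under 0.05, with 0.0428 from edgeR's quasi-likelihood test. Calls at this threshold made up 0.00773% of the 12941 tested genes in this direction and 0.232% in the other, in which none of the 10 genes was called. The next genes in that direction fell outside the threshold, Atp6v0a4, a subunit of the vacuolar proton pump, with a log2 fold change of -0.47 and Plxnb3, a semaphorin receptor, with -0.60. The difference of Rab5c was under 2-fold. The epithelial and alveolar type 2 marker sums were also lower with NR4A1, as was Rab7, and their part in these values was not tested. Its call was lost without any of NR4A1 overexpression replicates 1 and 3 and vector control replicates 1, 2 and 3 and was kept without NR4A1 overexpression replicate 2, with an adjusted p between 0.0402 and 0.229 from the same test over these 6 fits, while the log2 fold change stayed between -0.71 and -0.61.

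**Figure D1:**
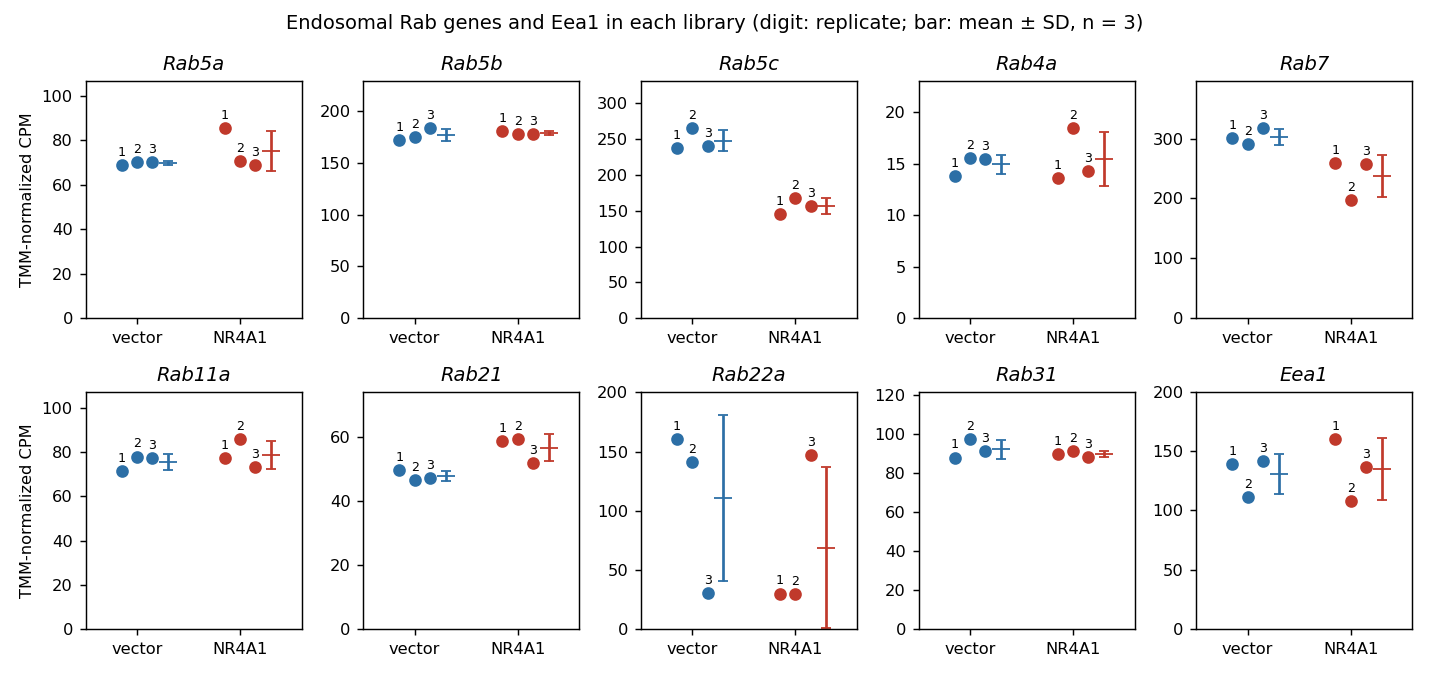
TMM-normalized CPM of each gene (vertical axes, each from 0) in the 3 vector control and 3 NR4A1 overexpression libraries, with the replicate number above each point and the mean ± SD at the side. Rab5c was lower in all 3 NR4A1 libraries, and Rab22a had 3 libraries near 29.97 CPM and 3 near 149.7 CPM that cut across the groups.

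No other gene of the table overlaps Rab5c. Its nearest neighbours were nearly silent: Hspb9, 433 bases away on the other strand, had at most 4 counts in a library and Kcnh4, 2160 bases away, at most 2. Kat2a, which encodes a histone acetyltransferase and is the next tested gene on the same strand, was counted 1445, 1764 and 1845 times with NR4A1 and 1687, 1832 and 1923 times with vector, a log2 fold change of -0.03 with a standard error of 0.0797. The groups overlapped in Kat2a.

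The other Rab5 genes did not show this gap. Rab5b (chromosome 10 from 128677193 to 128696268, minus strand) was at 181.0, 178.0 and 178.5 CPM with NR4A1 and 172.0, 175.2 and 183.4 CPM with vector. These libraries overlapped, and the log2 fold change was 0.02 with a standard error of 0.0635. Its highest library was 1.07 times its lowest, the smallest such ratio among the 10 genes. Rab5a (chromosome 17 from 53479234 to 53507671, plus strand) was at 85.3, 70.8 and 69.0 CPM against 68.7, 70.1 and 70.3 CPM. The groups overlapped, NR4A1 overexpression replicate 1 was the highest library, and the log2 fold change was 0.11 with a standard error of 0.102. Reads of Rab5b are less certain than those of Rab5c, since 9.80% of its 50-base stretches also occur in the transcript of Gm13991, against 0.728% for Rab5a, shared with Gm12045 and Rab5a-ps.

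The FPKM deposited by the authors, which divide each count by a gene length and the library total, allow levels of different genes to be set side by side. Of the summed FPKM of the 3 Rab5 genes, Rab5c made up 29.1%, 33.7% and 32.4% with NR4A1 and 42.7%, 44.9% and 41.9% with vector. With vector it was the largest of the 3 shares in every library, and with NR4A1 Rab5b was the largest in every library. The mean share of Rab5c was 31.7% ± 2.38 against 43.2% ± 1.59 (SD, n = 3 each), and the summed FPKM was 128.3 ± 1.76 against 151.3 ± 5.02. The sum was lower in all 3 NR4A1 libraries, with Rab5a and Rab5b at 31.5 and 56.1 FPKM against 29.8 and 56.2 FPKM. These shares depend on the length used. The length behind the FPKM of Rab5c was 3814 bases, more than the 2194 exonic bases that GENCODE M21 lists for the gene, and this was so for 5 of the 10 genes and for 75.8% of 10408 genes with a mean of at least 100 counts. With counts per kb of the longest coding transcript, 1967 bases for Rab5c, its mean share was 47.5% with NR4A1 and 59.7% with vector. Rab5c was then the largest share in both groups. Relative to both Rab5a and Rab5b, Rab5c was lower in every NR4A1 library than in any vector control. The direction of the change in its share could therefore not differ between the scales.

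**Figure D2:**
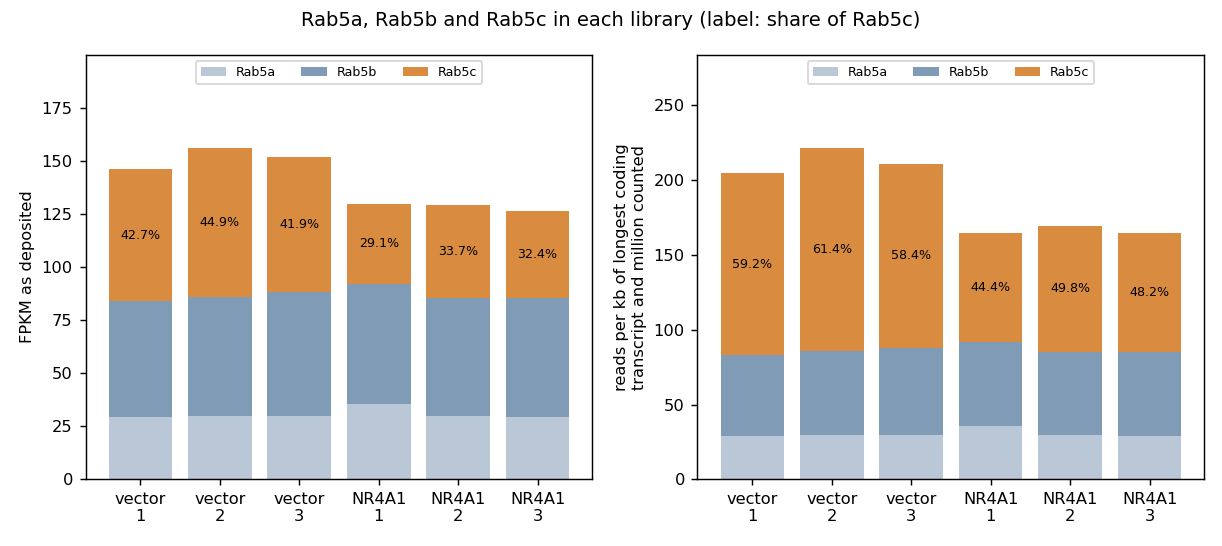
Stacked levels of Rab5a, Rab5b and Rab5c in each library, on the left as deposited FPKM and on the right per kb of the longest coding transcript, with the share of Rab5c printed in its bar. The Rab5c part was smaller in each NR4A1 library on both scales, from 29.1% to 33.7% against 41.9% to 44.9% on the left.

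Rab7 directs late endosomes towards fusion with lysosomes. Rab7 (chromosome 6 from 87999106 to 88045270, minus strand) was at 258.5, 197.4 and 257.6 CPM with NR4A1 and 300.8, 290.4 and 316.9 CPM with vector. The groups did not overlap, and the lowest value was that of NR4A1 overexpression replicate 2. Its log2 fold change was -0.35 with a standard error of 0.116, and -0.23 with a standard error of 0.0798 without that library, which is the one with the endothelial and fibroblast markers, whose part in the value was not tested. In Rab7, 11.2% of the 50-base stretches also occur in other genes, nearly all of them in the copy Rab7-ps1.

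Rab21 acts in the endosomal traffic of integrins. Rab21 (chromosome 10 from 115289863 to 115315591, minus strand) was at 58.7, 59.3 and 51.8 CPM with NR4A1 and 49.5, 46.5 and 47.2 CPM with vector. The lowest NR4A1 library was above the highest vector control, by a small margin, and the log2 fold change was 0.25 with a standard error of 0.0894. NR4A1 overexpression replicate 2 was the highest library, and the log2 fold change was 0.21 with a standard error of 0.0963 without it. Of the 10 genes, Rab5c and Rab7 thus had all NR4A1 libraries below the vector controls and Rab21 had all above, against 6.22% and 6.69% of all tested genes in these directions. The same 3 genes had an unadjusted p under 0.05, as did 2.44% of all tested genes that were lower and 4.02% that were higher, and nothing is read from this, since the set was chosen in this contrast. The libraries overlapped in the other 7 genes.

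**Figure D3:**
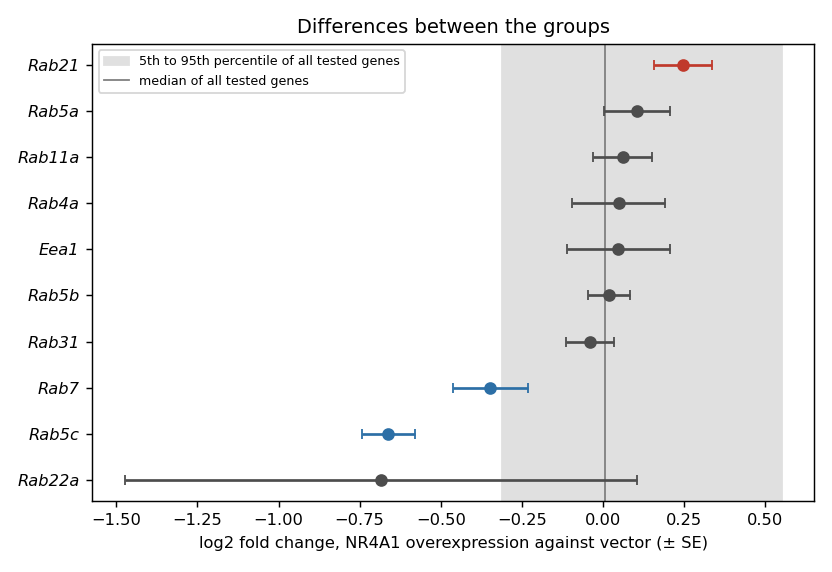
Log2 fold change of each gene with NR4A1 overexpression against vector, with its standard error, blue or red where the groups had no overlap. The grey band is the range from the 5th to the 95th percentile of all tested genes, -0.31 to 0.55, and Rab5c, Rab22a and Rab7 lie to its left, Rab22a with a standard error of 0.789.

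Rab22a takes part in sorting at early endosomes and in the return of cargo to the surface, and it varied most. Rab22a (chromosome 2 from 173659760 to 173707343, plus strand) was counted 443, 496 and 2545 times with NR4A1 and 2773, 2371 and 537 times with vector. NR4A1 overexpression replicates 1 and 2 and vector control replicate 3 were low, at 29.5 to 30.4 CPM, and the other 3 libraries were high, at 141.5 to 160.5 CPM. The high libraries were 4.99 times the low ones, and both levels occurred in both groups, so that the log2 fold change of -0.68 had a standard error of 0.789. It was -1.90 without NR4A1 overexpression replicate 3 and -1.13 without vector control replicate 3, and between -0.47 and -0.32 without any other single library. A ratio of the highest to the lowest library of at least 4 was found in 1.52% of 10424 genes with a mean of at least 100 counts, and in 0.902% without NR4A1 overexpression replicate 2. The ratio of Rab22a was 5.43 and 5.36, and the median ratio 1.30 and 1.26. No other gene of the table overlaps Rab22a, and none of its 50-base stretches occurred in another gene's transcripts. The counting program is not given in the sources used here, and whether the reads themselves hold both levels was not tested. Ppp4r1l-ps, 119 bases away on the other strand, was counted between 580 and 897 times with 888 counts in the low vector control replicate 3 and 704 in the high replicate 2.

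**Figure D4:**
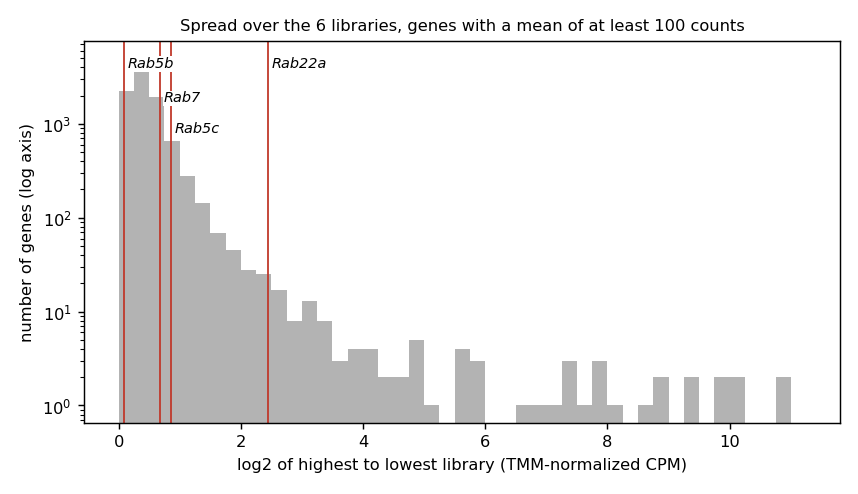
Number of genes (log axis) by the log2 ratio of their highest to their lowest library in TMM-normalized CPM, over genes with a mean of at least 100 counts, leaving out 9 genes that a library lists at 0. Rab22a, at a ratio of 5.43, lies in the thin right tail, and Rab5b, at 1.07, near the left end.

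The recycling genes Rab4a, which serves the fast return of receptors to the surface, and Rab11a, which serves the slower route through the recycling endosome, overlapped between the groups. Rab4a (chromosome 8 from 123805985 to 123835287, plus strand) was at 13.6, 18.4 and 14.3 CPM with NR4A1 and 13.8, 15.5 and 15.4 CPM with vector. Rab11a (chromosome 9 from 64715299 to 64737758, minus strand) was at 77.3, 86.0 and 73.5 CPM against 71.4, 78.1 and 77.6 CPM. In both genes NR4A1 overexpression replicate 2 was the highest library, and the log2 fold changes of 0.05 and 0.06 became -0.10 and -0.01 without it. Rab31, which acts between the trans-Golgi network and endosomes (chromosome 17 from 65651726 to 65772752, minus strand), was at 89.6, 91.0 and 88.1 CPM against 87.9, 97.3 and 91.1 CPM, a log2 fold change of -0.04 with a standard error of 0.0742. It was nearly as even over the libraries as Rab5b.

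Eea1 (chromosome 10 from 95940663 to 96045518, plus strand), whose protein tethers early endosomes through active Rab5, was at 160.1, 108.1 and 136.6 CPM with NR4A1 and 138.7, 111.3 and 141.6 CPM with vector. Replicate 2 was the lowest library in each group, and the groups overlapped over most of their range. The log2 fold change was 0.05 with a standard error of 0.159, and 0.18 without NR4A1 overexpression replicate 2. The median log2 fold change of the 10 genes was 0.03, against 0.01 over all tested genes.

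In the vector controls the order of levels by deposited FPKM was Rab5c at 65.4 ± 4.22, Rab5b at 56.2 ± 1.86, Rab7 at 42.8 ± 1.77, Rab5a at 29.8 ± 0.452, Rab31 at 26.7 ± 1.49, Rab21 at 26.4 ± 0.794, Eea1 at 16.8 ± 2.09, Rab11a at 14.1 ± 0.737, Rab22a at 7.95 ± 5.04 and Rab4a at 7.55 ± 0.497 FPKM (SD, n = 3). Neighbours in this order did not overlap, except Rab31 with Rab21, Eea1 with Rab11a and Rab22a with Rab4a. Per kb of the longest coding transcript, Rab7 at 141.1 ± 5.84 and Rab5c at 126.7 ± 8.18 came first and overlapped, and Rab21 came last at 10.4 ± 0.315. The length behind the FPKM was 7113 bases for Rab7, against 2159 bases of its longest coding transcript, and 1823 against 4602 bases for Rab21. The order between genes is therefore less firm than the differences within a gene, in which the length cancels.

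The genes whose log2 CPM over the 6 libraries followed Rab5c most closely, among 10423 genes with a mean of at least 100 counts, were Apbb1, Sh3tc1, Rcor2, Clic3 and Wnt7a, with Pearson's r between 0.984 and 0.993. Apbb1, an adaptor that binds the amyloid precursor protein, was at 78.1 ± 2.22 CPM with NR4A1 and 103.3 ± 3.96 CPM with vector (SD, n = 3 each), and Clic3, a chloride intracellular channel protein, at 9.24 ± 0.538 against 14.9 ± 1.87 CPM. The level of Wnt7a, a secreted Wnt ligand, was 49.8 ± 2.24 against 65.8 ± 1.47 CPM. Among the other genes of the set described here, without the pathway lists, the highest r with Rab5c was that of Rab7, at 0.679. These correlations rest on 6 libraries in 2 groups that the genes share, and they are given as a description.

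Beyond these 10 genes, 146 others of the endosomal pathway were listed by role, of which 144 are in the table and 132 were tested, under 133 identifiers. None had an adjusted p under 0.05 from edgeR's quasi-likelihood test, which 0.24% of all tested genes had in either direction. At an unadjusted p under 0.05 there were 3 lower and 5 higher identifiers, together 6.02% against 6.46% of all tested genes. DESeq2 called 1 listed gene, Egfr, at an adjusted p under 0.05, beside 121 higher and 25 lower among all 12941 tested genes. Without NR4A1 overexpression replicate 2, DESeq2 called Rabgef1 in place of Egfr, while edgeR's quasi-likelihood test called no listed gene. How many of all tested genes that DESeq2 fit called is not given here. The median log2 fold change of the listed genes was 0.01. No identifier was as low as Rab5c, which was chosen in this contrast and ranks 112 from the lowest of the 12941 tested genes. Nothing is read from this. In 18 of the 133, or 13.5%, the groups had no overlap, against 12.9% of all tested genes.

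The exchange factors that load Rab5 or Rab21 with GTP had a median log2 fold change of 0.04 over 8 tested genes. Rin2 was at 73.2 ± 4.07 against 64.2 ± 0.850 CPM (log2 fold change 0.19) and Rabgef1 at 31.6 ± 7.04 against 24.1 ± 2.85 CPM (0.39), with adjusted p-values of 0.772 and 0.784 from edgeR's quasi-likelihood test, and Rin1 had a log2 fold change of 0.11. Without NR4A1 overexpression replicate 2 the log2 fold changes of Rin2, Rabgef1 and Rin1 were 0.14, 0.56 and 0.05. For Rabgef1, DESeq2 then gave an adjusted p of 0.0235 and edgeR's quasi-likelihood test 0.196. Rabgef1 was at 35.6, 23.5 and 35.7 CPM with NR4A1 and 27.3, 23.4 and 21.7 CPM with vector. The library left out was thus the NR4A1 library that lay within the range of the vector controls. The listed proteins that switch Rabs off had a median of 0.09 over 9 identifiers. Tbc1d2, Sgsm3 and Tbc1d30, with 0.75, -0.63 and 0.38, had fewer than 9 CPM in every library. Tbc1d2 was at 5.72 CPM in NR4A1 overexpression replicate 2 and between 1.85 and 2.37 CPM elsewhere, and without that library the 3 values were 0.12, -0.33 and 0.58. Among 19 effectors and tethers of early endosomes the median was 0.01, and Stx6, Tgfbrap1 and Zfyve16 had log2 fold changes of 0.34, 0.33 and 0.19. Stx6, a syntaxin of the trans-Golgi network and endosomes, was at 44.1 CPM in NR4A1 overexpression replicate 2 and between 22.9 and 27.4 CPM in the other libraries, and its log2 fold change was 0.04 without that library. Tgfbrap1 was at 29.8 CPM in vector control replicate 2 and between 53.0 and 61.7 CPM elsewhere, and its log2 fold change was 0.10 without that library. That of Zfyve16 was 0.09 without vector control replicate 2. No gene of these 3 lists passed the threshold.

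Further along the pathway the medians were as small. Single genes ranged from -0.38 among retromer, sorting nexins and ESCRT-0 to 0.83 among the recycling factors. The HOPS core and the activators and effectors of Rab7 had a median log2 fold change of -0.02 over 15 genes, with Mon1b and Vps18 both at -0.13 and Fyco1 at 0.19. Recycling factors had a median of 0.03 over 11 genes, with Ehd4 at 0.13, Rab11fip4 at -0.23 and Rab11fip3 at -0.22. The list kept for Rab lipidation and membrane cycling had a median of 0.06 over 8 genes, with Rabif at 0.17, Chml at 0.20 and Rabggtb at 0.08. Retromer, sorting nexins and ESCRT-0 had a median of 0.03 over 13 genes, with Vps29 at 0.22, Hgs at -0.13 and Stam at 0.11. Without NR4A1 overexpression replicate 2, Rabif was at 0.03, Chml at 0.39, Ehd4 at 0.10, Rab11fip4 at -0.14 and Rab11fip3 at -0.10. Leaving out NR4A1 overexpression replicate 1 instead, Chml was at -0.002 and Vps29 at 0.08. The smallest adjusted p in these 4 lists was 0.829 from edgeR's quasi-likelihood test.

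**Figure D5:**
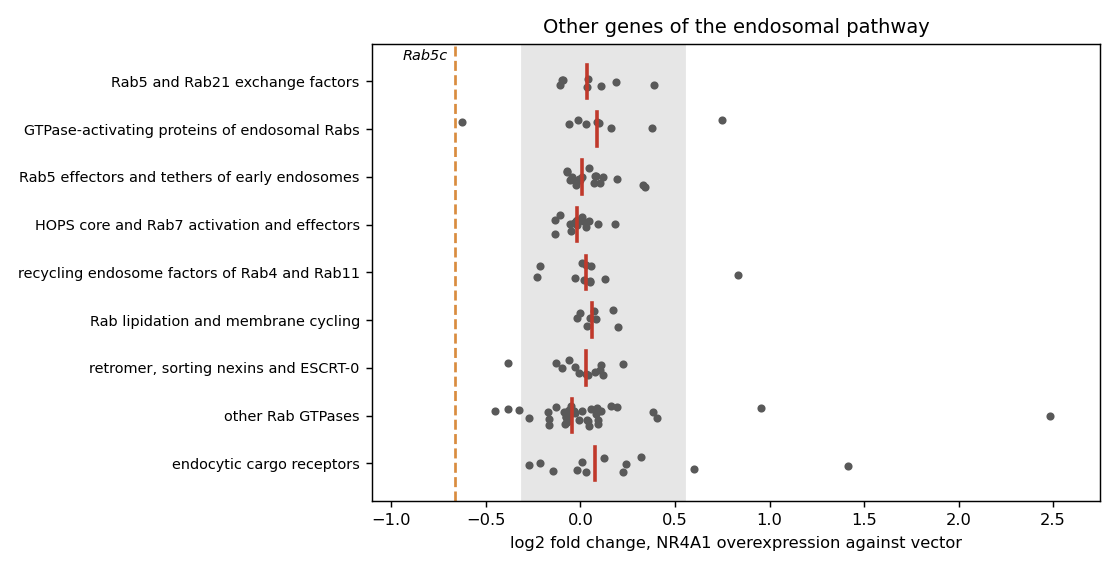
Log2 fold change of each tested gene of the endosomal pathway lists with NR4A1 overexpression against vector, with the list's median as a red bar and the 5th to 95th percentile of all tested genes in grey. Medians lie between -0.04 and 0.09. No gene reached the dashed line at -0.66, the value of Rab5c, which was chosen in this contrast.

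Of the 38 other Rab GTPases tested, 7 had no overlap between the groups, or 18.4% against 12.9% of all tested genes. The NR4A1 libraries were above in 6 of them and below in 1, against 6.69% and 6.22% of all tested genes. The secretory Rab27b was at 25.6 ± 4.39 CPM with NR4A1 and 19.3 ± 0.605 CPM with vector, and its paralogue Rab27a at 12.4 ± 3.00 against 16.9 ± 0.295 CPM (SD, n = 3 each), with log2 fold changes of 0.40 and -0.45 and adjusted p-values of 0.620 and 0.734 from edgeR's quasi-likelihood test. Rab30, a Golgi Rab, was at 4.43 ± 1.68 against 2.27 ± 0.698 CPM. The median log2 fold change over these 38 genes was -0.04, and single genes ranged from -0.45 to 2.48.

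Receptors that travel through early endosomes had differences in both directions, none of which passed the threshold in edgeR's test. Erbb2, a receptor tyrosine kinase, was at 135.9 ± 10.8 CPM with NR4A1 and 157.6 ± 2.67 CPM with vector (SD, n = 3 each). Its log2 fold change was -0.21, and edgeR's quasi-likelihood test gave an adjusted p of 0.694. Egfr, the epidermal growth factor receptor, was at 11.3, 24.9 and 10.8 CPM with NR4A1 and 7.23, 3.88 and 6.51 CPM with vector, a log2 fold change of 1.41. Its adjusted p was 0.454 from edgeR's quasi-likelihood test and 0.0137 from DESeq2. All 3 NR4A1 libraries were above all vector controls, and replicate 2, with the markers of other cell types, was the highest. Without it the log2 fold change was 0.91 and the call by DESeq2 was lost, with an adjusted p of 0.149. In 5 of the 12 cargo receptors, or 41.7%, the groups did not overlap, against 12.9% of all tested genes.

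The response element NBRE, AAAGGTCA, to which NR4A1 can bind as a monomer, was searched on both strands of RefSeq promoter windows from 250 bases before to 50 bases after each gene's start (GRCm38.p6). Windows were matched by symbol for 9 of the 10 genes, all but Rab4a. No window of these 9 genes held it, and 1.51% of 32851 windows of all genes did. The shorter AGGTCA, which is part of the NBRE, was in the windows of Rab22a and Rab31 and in 16.3% of all windows. A missing match says only that these letters are not in these windows.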

How the data were processed

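For every gene and library the authors deposited a read count, not normalized, and an FPKM value, which scales that count by gene length and library total. The submitters' processing notes name HISAT2 2.0.4 and the build GRCm38.p4, and the counting program, annotation and filters are not given in the sources used here. Of 34267 identifiers shared with GENCODE M21, 80.8% have the same position and strand.

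Counts were scaled with TMM factors, filtered with filterByExpr and compared with edgeR 4.0.16 (quasi-likelihood test, R 4.3.3) over all 6 libraries, with Benjamini-Hochberg adjustment over 12941 genes. Alternatives used DESeq2 1.42.0, edgeR's exact test, limma 3.58.1 (voom, and log2(FPKM + 1)), other scalings and filters, the replicate number as a block, and each library left out. The fits were tested on simulated counts with planted changes larger than that of Rab5c and with no library that stands apart. That simulation therefore says nothing about the call of Rab5c. Coding sequences were aligned with MAFFT 7.526. Same-group libraries differed by more than counting error, with a chi-square per degree of freedom of at least 9.36. The members and gene lists were chosen with earlier results of these data known. In each pathway list, the 3 genes with the smallest p are named, apart from 1 that is not reported here, and for likeness to Rab5c the 5 genes with the highest r. Kat2a and the genes beside the threshold were named after their values were seen. Protein sequences were not used here.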

Additional observations from a re-analysis of the deposited data

How the results depend on the processing

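The log2 fold change of Rab5c stayed between -0.71 and -0.61 over 16 alternatives, and its call held in 7 of them. It was -0.67 from limma on log2(FPKM + 1) (adjusted p = 0.0673), -0.66 with a mean of at least 10 counts (edgeR's quasi-likelihood test, adjusted p = 0.0635), -0.66 without a count filter (0.0506 from the same test) and -0.66 under the replicate block (0.0754), with 0 of the 10 genes called lower in each of these 4. With each library left out in turn the count of genes called lower was 0 to 1 and the log2 fold change of Rab5c -0.71 to -0.61, which leaves fewer libraries. Under an unadjusted p under 0.05, 2 of the 10 genes were lower and 1 higher, and 3 pathway genes were lower and 5 higher. DESeq2 called 1 pathway gene higher, Egfr, and also 1 without NR4A1 overexpression replicate 2, Rabgef1, in a fit chosen after seeing the data. The share of Rab5c per kb of the longest coding transcript, a setting chosen after seeing the data, was 47.5% with NR4A1 and 59.7% with vector. The sign differed in 3 alternatives for Rab5b, 2 for Rab4a, 2 for Eea1, 1 for Rab11a and 1 for Rab31, and in none for Rab5a, Rab7, Rab21 and Rab22a. Over all tested genes, 30 were higher and 1 lower, against 121 and 25 with DESeq2, 94 and 10 with the exact test, 10 and 0 with limma on log2(FPKM + 1), 11 and 0 with a mean of at least 10 counts, 24 and 0 without a count filter, and 5 and 0 with the block. With a library left out, 3 to 32 genes were higher and 0 to 4 lower.

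Libraries with the same number, taken as deviations from the group mean, had correlations of -0.01, -0.05 and 0.25 for replicates 1, 2 and 3. NR4A1 overexpression replicate 2 stands apart and enters the group mean behind these values, so they cannot settle whether the samples were paired. The labels used here give a number and no pairing, and the fit with the replicate block is given as an alternative. Each of the 10 genes had at least 201 counts in every library. With 3 libraries a group, the spread between libraries limits which differences can be called.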
